A study of Mus musculus with 4 samples.

Results

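The circadian clock genes described here are the 10 genes Per1, Per2, Per3, Cry1, Cry2, Arntl, Clock, Nr1d1, Nr1d2 and Dbp, chosen by name as the core activators, repressors and an output of the clock. Each was found as 1 row among the 23282 genes of the count table, Arntl (also called Bmal1) under its older symbol. RNA bound to chromatin in isolated nuclei, which the study calls nascent, was sequenced from C2C12 myotubes. These are the fused muscle cells formed by a mouse myoblast cell line that is labelled female. All cells had been deprived of steroids. Then, for 2 h, they received either vehicle or dexamethasone, a synthetic agonist of the glucocorticoid receptor, at 1 µM. Each group has 2 libraries. C2C12 is 1 immortal line, and the labels do not say whether the libraries came from separate cultures. The p-values therefore measure only the spread between these libraries, which may be technical. In the main test this spread includes any difference between replicate numbers, as described below.

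The mammalian clock is a feedback loop of transcription. CLOCK and BMAL1 bind E-boxes and switch on the Period and Cryptochrome genes, whose proteins return to the nucleus and block CLOCK and BMAL1. The REV-ERB receptors, encoded by Nr1d1 and Nr1d2, repress Arntl and so form a stabilising loop, and DBP carries the rhythm to genes with D-boxes. Glucocorticoids are a known signal by which peripheral clocks, muscle among them, are set in time, and Per1 is a classical glucocorticoid target.

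RefSeq promoter windows (GRCm38.p6, 250 bases before to 50 after a gene start) were matched by symbol for 9 of the 10 genes, 13 windows in all, with none matched for Per2. Printed here are the 2 windows of Per1, the member with the largest difference after dexamethasone, and for contrast those of Per3, Cry1, Nr1d1 and Dbp. Capitals mark any of 6 motifs searched on both strands: the E-box CACGTG, the related E'-box CACGTT, the D-box TTATGNAA, the core AGGTCA bound by ROR and REV-ERB receptors, the cAMP response core TGACG, and the glucocorticoid response element, searched as GNACA and TGTNC with any 3 bases between them.
Per1, upstream start, chr11:69098699-69098998, plus strand: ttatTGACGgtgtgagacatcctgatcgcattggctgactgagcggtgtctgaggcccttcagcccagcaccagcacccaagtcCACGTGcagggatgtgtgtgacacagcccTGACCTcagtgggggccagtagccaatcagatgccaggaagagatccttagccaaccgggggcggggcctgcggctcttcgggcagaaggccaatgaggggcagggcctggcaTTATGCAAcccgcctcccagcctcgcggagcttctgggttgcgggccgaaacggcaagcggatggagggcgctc
Per1, downstream start, chr11:69099902-69100201, plus strand: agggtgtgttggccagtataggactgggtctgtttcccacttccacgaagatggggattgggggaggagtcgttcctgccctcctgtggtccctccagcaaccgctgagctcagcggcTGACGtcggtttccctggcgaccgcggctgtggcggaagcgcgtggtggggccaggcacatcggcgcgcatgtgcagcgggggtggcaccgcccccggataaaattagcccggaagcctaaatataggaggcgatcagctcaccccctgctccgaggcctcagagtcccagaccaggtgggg
Per3, chr4:151044616-151044915, minus strand: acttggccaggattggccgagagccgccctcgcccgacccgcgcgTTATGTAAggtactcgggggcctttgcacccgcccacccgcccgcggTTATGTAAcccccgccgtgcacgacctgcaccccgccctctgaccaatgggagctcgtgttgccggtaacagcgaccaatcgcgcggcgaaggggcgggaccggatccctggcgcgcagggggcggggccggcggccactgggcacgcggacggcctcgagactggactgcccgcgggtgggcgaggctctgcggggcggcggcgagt
Cry1, chr10:85185005-85185304, minus strand: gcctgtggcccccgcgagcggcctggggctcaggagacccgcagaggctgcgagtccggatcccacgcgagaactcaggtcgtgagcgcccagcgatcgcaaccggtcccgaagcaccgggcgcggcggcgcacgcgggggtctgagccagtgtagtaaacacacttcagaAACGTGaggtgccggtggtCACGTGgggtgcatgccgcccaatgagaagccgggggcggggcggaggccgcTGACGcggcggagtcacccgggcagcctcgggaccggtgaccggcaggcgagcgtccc
Nr1d1, chr11:98775328-98775627, minus strand: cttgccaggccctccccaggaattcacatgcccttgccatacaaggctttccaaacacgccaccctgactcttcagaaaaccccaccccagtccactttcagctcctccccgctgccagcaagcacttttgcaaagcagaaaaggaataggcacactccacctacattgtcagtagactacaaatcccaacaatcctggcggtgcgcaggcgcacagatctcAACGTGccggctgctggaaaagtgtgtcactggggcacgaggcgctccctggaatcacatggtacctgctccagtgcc
Dbp, chr7:45704997-45705296, plus strand: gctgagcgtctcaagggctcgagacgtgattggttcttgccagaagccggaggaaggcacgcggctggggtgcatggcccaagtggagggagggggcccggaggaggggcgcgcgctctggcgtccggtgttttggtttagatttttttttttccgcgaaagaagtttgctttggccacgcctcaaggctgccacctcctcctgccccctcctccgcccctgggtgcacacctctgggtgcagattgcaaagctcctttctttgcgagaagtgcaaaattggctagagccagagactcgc

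The upstream Per1 window held an E-box starting at position -166 from the gene start, a D-box at -24, a ROR core on the opposite strand at -137 and a cAMP response core at -246. The downstream Per1 window held only a cAMP response core, at -132. Per3 carried 2 D-boxes, at -205 and -158, and Cry1 an E-box at -60 with an E'-box at -79. Nr1d1 carried an E'-box at -28, and the Dbp window held none of the 6 motifs. Over all 32817 windows of the same length, 7.15% held an E-box, 4.69% an E'-box, 3.39% a D-box, 16.3% a ROR core and 20.8% a cAMP response core. Among the 13 windows of the clock genes, 2 held an E-box, 3 an E'-box, 2 a D-box, 4 a ROR core and 4 a cAMP response core. The glucocorticoid response element was in 0 of the 13 and in 0.475% of all windows. A match is a run of letters in a window of this size and not a shown binding site, and more distant sequence was not searched.

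The libraries held between 19631435 and 88596296 counts, fewest in vehicle replicate 1 and most in dexamethasone replicate 2. Fkbp5, a classical glucocorticoid target used to check the treatment, was at 21.4 and 21.6 CPM (reads relative to the library total, scaled by TMM) with vehicle and at 1018 and 696 CPM with dexamethasone (log2 fold change 5.32, SE 0.263, edgeR adjusted p 0.0429). The 10 myotube markers, mostly Ttn, summed to between 43357 and 125374 CPM, high in both replicate 1 libraries and low in both replicate 2 libraries. Ttn, Myh3, Myh8, Myog, Ckm, Actn2 and Acta1 each had this pattern. Mymk, Tnnt3 and Ryr1 differed far less, with Mymk at 175.8 and 173.3 CPM with vehicle and at 208.2 and 207.8 with dexamethasone. The 5 fibroblast markers summed to 11.4 to 19.1 CPM, 5 markers of cycling cells to 21.9 to 26.5 and 5 adipocyte markers to 0.107 to 0.211, with Lum and Cidec at 0 counts. The 5 myoblast markers summed to 34.9 and 40.7 CPM with vehicle and to 20.7 and 24.7 with dexamethasone. Most of this was Pax7, at 32.0 and 39.0 CPM with vehicle and at 17.9 and 22.9 with dexamethasone. Pax3 was also lower, Myf5 overlapped between groups (log2 fold change 0.30), and Calcr and Chrdl2 had at most 1 count in any library. The part of residual myoblasts or fibroblasts in the results was not tested. In bulk RNA, fewer cells of a type, less RNA per cell and a change of a single gene cannot be told apart.

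The comparison of dexamethasone with vehicle asks which clock genes respond in chromatin-bound RNA shortly after the receptor is activated. Kits for total RNA and for mRNA, both stranded, are each named in the labels' protocol, so whether poly(A) RNA was selected is not settled, and with it how far the counts stand for RNA still being made. Among the 10 genes, Per1 stood at a 5.76-fold higher level with dexamethasone, and every other member had a fitted difference of less than 2-fold. At least a 2-fold difference was fitted for 3.72% of all 13285 genes tested. By edgeR's quasi-likelihood test with Benjamini-Hochberg adjustment over all genes, 0 of the 10 passed an adjusted p of 0.05, against 0.0376% of all genes. That fit has no term for replicate number, and the count with such a term is given below. At an unadjusted p under 0.05, 1 member was higher (Per1) and 0 were lower, where 4.09% of all genes were higher and 1.69% lower. By DESeq2's Wald test 1 of the 10 was higher (again Per1) and 0 were lower, against 1.81% and 0.407% of the 13027 genes that test adjusted. The median log2 fold change of the 10 was -0.02, beside -0.0016 over all genes tested, with 5 members above 0 and 5 below.

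**Figure D1:**
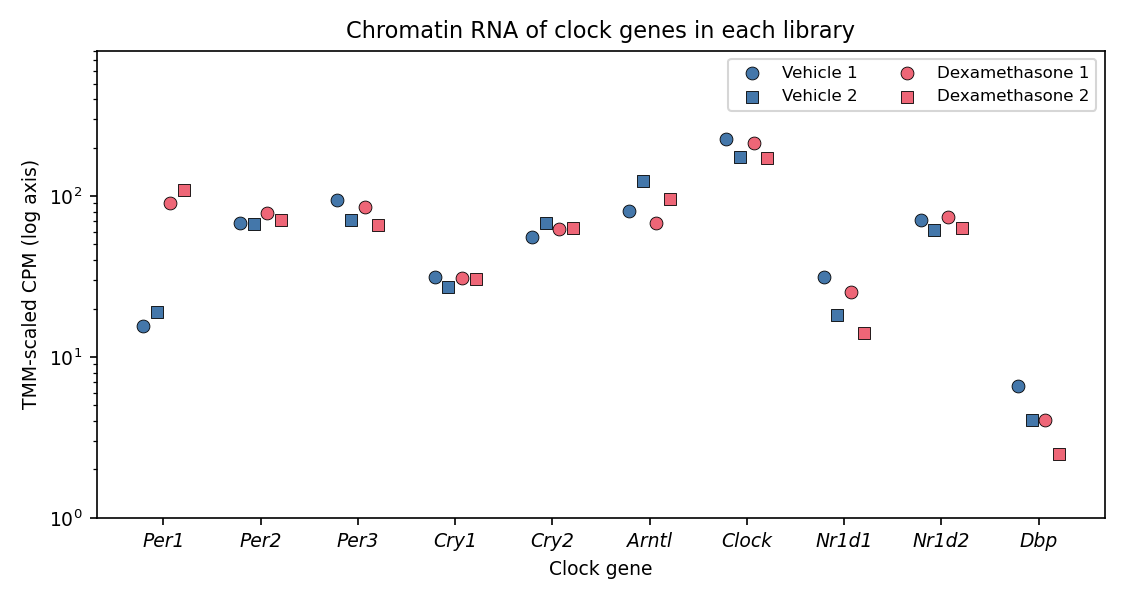
TMM-scaled CPM (log axis) of the 10 clock genes in the 2 vehicle and 2 dexamethasone libraries, each point 1 library. Per1 lies at 15.6 and 19.1 CPM with vehicle and at 91.0 and 109 CPM with dexamethasone, while the points of the other genes overlap or, for Per2, lie close together.

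The Period genes encode the repressors whose build-up times the loop. Per1 (ENSMUSG00000020893) had 290 and 725 counts in vehicle replicates 1 and 2 and 2728 and 10181 in dexamethasone replicates 1 and 2. That is 15.6 and 19.1 CPM against 91.0 and 109 CPM, or 17.3 ± 2.51 against 99.99 ± 12.7 (SD, n = 2 each). Both dexamethasone libraries lay far above both vehicle libraries. The log2 fold change was 2.53 (SE 0.186, 95% interval 2.03 to 3.02), the seventh smallest p of all genes (edgeR p 7.4e-05, adjusted p 0.117). The adjusted p was 1.69e-21 by DESeq2's Wald test and ran from 1.69e-21 to 0.202 over all settings tried. Leaving out 1 library gave log2 fold changes of 2.39 to 2.69, with dexamethasone higher each time. The edgeR adjusted p of these fits was 0.0541 when vehicle replicate 1 was dropped and 0.00639 when vehicle replicate 2 was dropped. It was 0.0234 when the first dexamethasone library was dropped and 0.0280 when the second was. Each such fit has a lone library in 1 group and assumes that it varies like the other group. It also leaves the replicate numbers uneven between groups, so a difference between replicate numbers enters its fold change. This holds for every gene below.

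Per2 (ENSMUSG00000055866), the close relative of Per1, was at 68.4 and 66.7 CPM with vehicle and at 78.8 and 70.9 CPM with dexamethasone. The groups did not overlap but lay close together, with a log2 fold change of 0.15 (SE 0.127, 95% interval -0.19 to 0.48). Groups that did not overlap, with dexamethasone higher, were found for 2 of the 10 members (Per1 and Per2) and for 15% of all genes tested, and with dexamethasone lower for 0 members and 12.9% of all genes. The interval of Per2 ends well short of that of Per1. Per3 (ENSMUSG00000028957), which has a lesser role in the core loop, was at 94.3 and 70.8 CPM with vehicle and at 85.8 and 65.8 CPM with dexamethasone. Its groups overlapped, and the replicate 1 libraries were the higher ones in both. At either replicate number the dexamethasone library was the lower, a pattern also seen below in Clock, Arntl, Nr1d1 and Dbp. How many of all genes have this pattern was not counted. The log2 fold change of Per3, -0.12 (SE 0.219, 95% interval -0.70 to 0.46), turned to 0.10 without vehicle replicate 1 and to 0.06 without dexamethasone replicate 2. Per3 overlaps Camta1 on the same strand, so reads in the shared stretch could have been assigned to either gene.

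The balance among the Period genes can be read within each library, where no scaling between libraries enters. The pairs of genes set against each other in this way were chosen after the counts had been seen. Per1 made up 8.72% of the summed Per1, Per2 and Per3 counts in vehicle replicate 1 (95% Wilson interval 7.81% to 9.73%) and 12.2% in vehicle replicate 2 (11.4% to 13.1%). In dexamethasone replicate 1 the share was 35.6% (34.5% to 36.7%) and in replicate 2 it was 44.4% (43.7% to 45.0%). These intervals treat the reads of 1 library as independent and leave out the spread between libraries. Since the reads carry no molecular identifiers, the intervals may be too narrow even for counting error. Per1 thus had 0.227 and 0.286 counts for each Per2 count with vehicle and 1.15 and 1.54 with dexamethasone. The ratio of Per2 to Per3 counts was 0.726 and 0.943 with vehicle and 0.918 and 1.08 with dexamethasone, and there the groups overlapped.

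**Figure D2:**
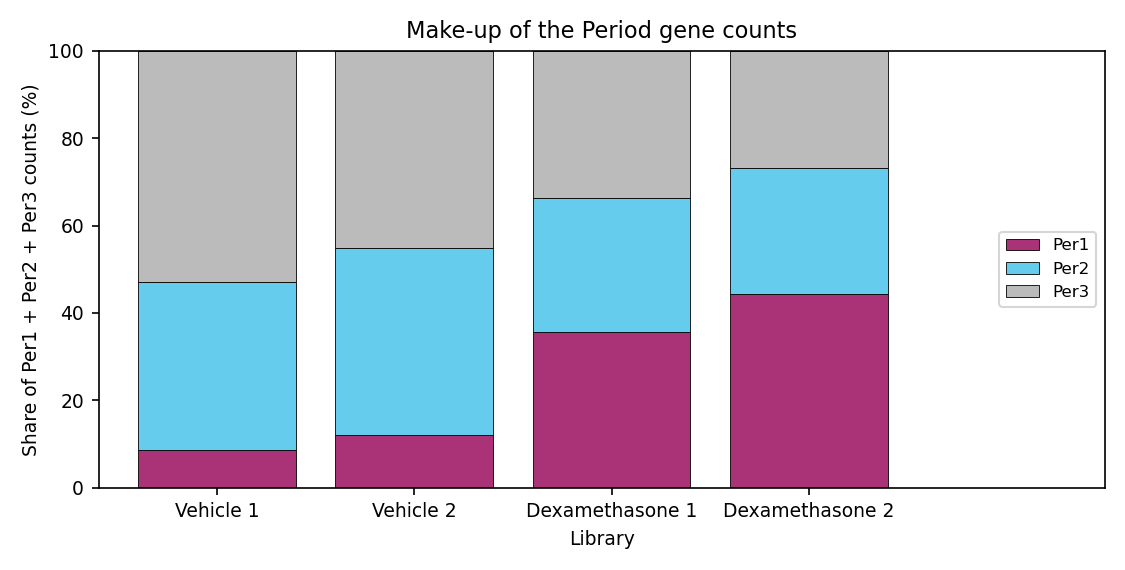
Share (%) of the summed Per1, Per2 and Per3 counts taken by each gene, with 1 bar per library. The Per1 share is 8.72% and 12.2% with vehicle and 35.6% and 44.4% with dexamethasone.

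The Cryptochromes are the partners with which the PER proteins block CLOCK and BMAL1. Cry1 (ENSMUSG00000020038) was at 31.5 and 27.2 CPM with vehicle and at 31.0 and 30.6 CPM with dexamethasone. Cry2 (ENSMUSG00000068742) was at 56.0 and 68.4 CPM with vehicle and at 62.4 and 63.8 CPM with dexamethasone. In both genes the 2 dexamethasone libraries fell between the vehicle libraries. The log2 fold changes were 0.07 (SE 0.149, 95% interval -0.32 to 0.46) for Cry1 and 0.02 (SE 0.152, -0.38 to 0.42) for Cry2, and neither sign was stable: Cry1 was at -0.026 without vehicle replicate 2 and Cry2 at -0.12 without vehicle replicate 1, at -0.0089 with upper quartile scaling and at -0.028 with library size only. These intervals leave out a difference as large as that of Per1. The ratio of Cry1 to Cry2 counts was 0.563 and 0.397 with vehicle and 0.497 and 0.480 with dexamethasone.

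The activators were compared next. Clock (ENSMUSG00000029238) was the member with the most reads, at 226 and 175 CPM with vehicle and 213 and 172 CPM with dexamethasone. Its groups overlapped, with the replicate 1 libraries higher in both. At either replicate number the dexamethasone library was slightly the lower. The log2 fold change was -0.06 (SE 0.196, 95% interval -0.58 to 0.46). It turned to 0.14 without vehicle replicate 1 and to 0.09 without dexamethasone replicate 2. Arntl (ENSMUSG00000055116), which encodes BMAL1, was at 81.2 and 124 CPM with vehicle and at 67.7 and 95.8 CPM with dexamethasone. Here the replicate 2 libraries were the higher ones in both groups and the groups overlapped. At either replicate number the dexamethasone library was the lower. The log2 fold change was -0.33 (SE 0.285, 95% interval -1.09 to 0.43, edgeR adjusted p 1.000), and it moved to 0.019 without vehicle replicate 2 and to -0.60 without dexamethasone replicate 2. With a term for replicate number in the fit, Arntl passed as lower, as given below with the limits of that fit. Arntl had 0.359 and 0.710 counts per Clock count with vehicle and 0.317 and 0.556 with dexamethasone.

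Of the REV-ERB receptors, Nr1d1 (ENSMUSG00000020889) was at 31.5 and 18.2 CPM with vehicle and at 25.3 and 14.1 CPM with dexamethasone. The groups overlapped, since in either group the first replicate was higher than the second replicate of the other. At either replicate number the dexamethasone library was the lower. The log2 fold change was -0.34 (SE 0.406, 95% interval -1.41 to 0.74), with values of 0.11 when vehicle replicate 1 was left out, and of 0.03 and -0.81 when the second and the first dexamethasone library were. With a term for replicate number in the fit, Nr1d1 passed as lower, as given below with the limits of that fit. Nr1d1 overlaps Thra on the opposite strand, and the strand setting of the counting is not given in the sources used here, so part of its reads may belong to Thra. Nr1d2 (ENSMUSG00000021775) was at 71.2 and 61.2 CPM with vehicle and at 74.1 and 62.9 CPM with dexamethasone. Its groups overlapped, and at either replicate number the dexamethasone library was slightly the higher. Its log2 fold change of 0.05 (SE 0.158, 95% interval -0.37 to 0.47) was at -0.05 without vehicle replicate 2 and at -0.07 without dexamethasone replicate 1.

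Dbp (ENSMUSG00000059824), the output factor that binds D-boxes, had the fewest reads of the 10, with 123 and 154 counts with vehicle and 122 and 234 with dexamethasone. That is 6.60 and 4.06 CPM against 4.07 and 2.51 CPM. The groups overlapped narrowly, dexamethasone replicate 1 lying just above vehicle replicate 2. At either replicate number the dexamethasone library was the lower. The log2 fold change was -0.70 (SE 0.394, 95% interval -1.74 to 0.34, edgeR adjusted p 1.000), and dropping a library moved it to between -1.07 (dexamethasone replicate 1 dropped) and -0.32 (vehicle replicate 1 dropped). Dbp was also set against Tef, which encodes a relative that binds the same D-boxes. Dbp had 0.0441 and 0.0323 counts per Tef count with vehicle and 0.0267 and 0.0208 with dexamethasone. This ratio did not overlap between groups, though Dbp alone did. Tef, too, was higher in the replicate 1 libraries, at 149 and 125 CPM with vehicle and 152 and 120 with dexamethasone. Dividing by Tef thus takes out part of the replicate difference, and the pair was chosen after the counts had been seen. With a term for replicate number in the fit, Dbp passed as lower, as given below with the limits of that fit. Dbp overlaps Sphk2 on the opposite strand, with the same limit as for Nr1d1 and Thra. That limit also holds for Cry2 and Arntl, which overlap D930015M05Rik and Gm45355 on the opposite strand. Clock overlaps Ube2n-ps1 and Gm43658 on the same strand, with the limit given for Per3.

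**Figure D3:**
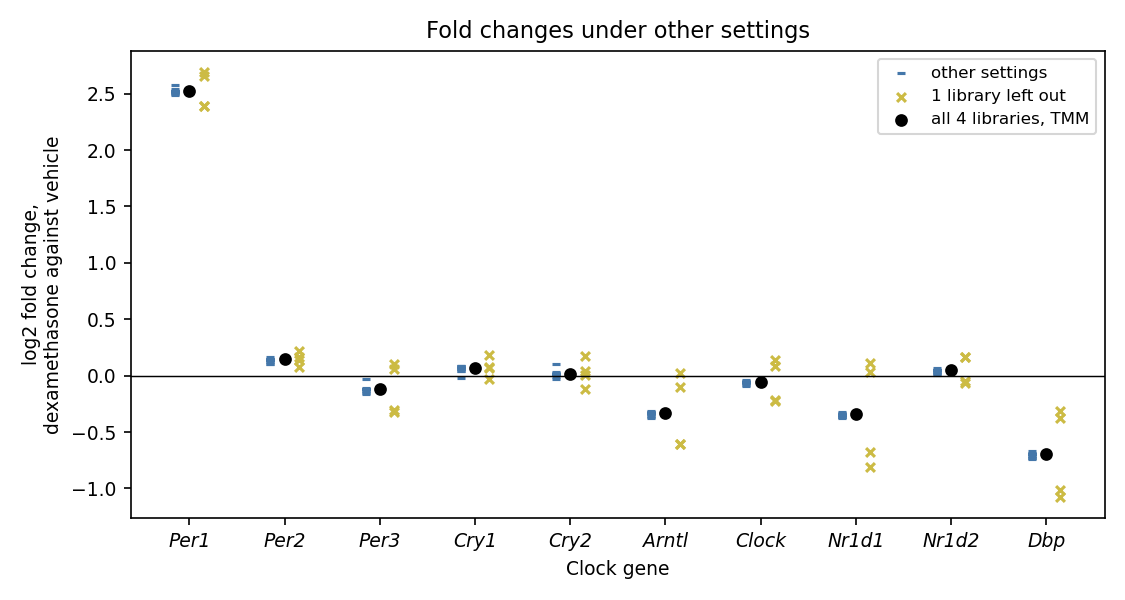
log2 fold change, dexamethasone against vehicle, of each clock gene with all 4 libraries and TMM scaling (black), under the other settings (blue) and with 1 library left out (yellow). Per1 stays between 2.39 and 2.69 in all of these, and the values without 1 library lie on both sides of 0 for 7 of the other genes and from -1.07 to -0.32 for Dbp.

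Levels of different genes were compared per kb, since long genes collect more reads. Whether introns were counted is not given in the sources used here, so both the exon length and the whole gene span were used (GENCODE M21). Per kb of exon, Clock was highest with vehicle, at 16.5 and 12.7 CPM per kb, and Dbp lowest at 2.20 and 1.36. Per1 came ninth of 10, at 2.76 and 3.39, below the lowest vehicle library of each of the 8 genes above it. Arntl, Nr1d2, Per2, Cry2, Cry1, Per3 and Nr1d1 had vehicle means between 8.07 and 13.7 CPM per exon kb, and neighbours in that order overlapped between libraries, apart from Per2 (11.4 and 11.7), which lay above Cry2 (8.87 and 10.8). With dexamethasone Per1 had the highest mean level, at 16.2 and 19.4 CPM per exon kb, and both Clock libraries lay below it, at 15.5 and 12.6. Per kb of gene span the order changed: Nr1d1 was highest with vehicle, at 4.25 and 2.46, Cry1 lowest at 0.591 and 0.509, and Per1 seventh at 1.05 and 1.30. Per1 again had the highest level with dexamethasone, at 6.17 and 7.39 CPM per span kb. The place of Per1 at the top after treatment therefore held with either length, and the order of the other genes did not.

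**Figure D4:**
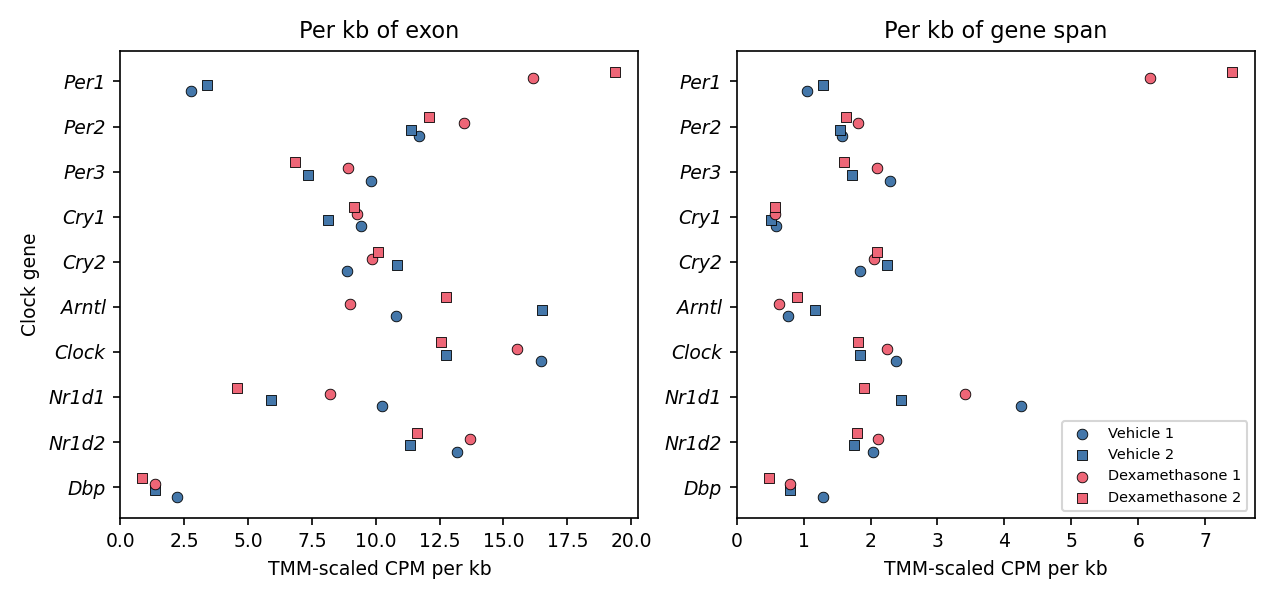
TMM-scaled CPM per kb of exon (left) and per kb of gene span (right) of the 10 clock genes, each point 1 library. Per1 moves from 2.76 and 3.39 CPM per exon kb with vehicle to 16.2 and 19.4 with dexamethasone, the highest mean of the 10 under both lengths.

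The wider clock was read from 26 further genes, chosen by role. Of these, 25 had enough reads to test, and Hlf, with at most 45 counts in any library, did not. By edgeR's quasi-likelihood test 0 of the 25 passed over all genes, against 0.0376% of all genes. At an unadjusted p under 0.05, 3 were higher (Wee1, Usp2 and Nfil3) and 0 were lower, where 4.09% of all genes were higher and 1.69% lower. The same 3 genes were the ones that passed by DESeq2's Wald test, which adjusted 24 of the 25. By that test 1.81% of all genes it adjusted were higher and 0.407% lower. The median log2 fold change of the 25 was -0.00014, with 12 above 0 and 13 below, and groups did not overlap in 7 with dexamethasone higher and in 3 with it lower. These shares stand beside the 15% and 12.9% of all genes given above.

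Wee1 encodes a kinase that restrains entry into mitosis and is a known clock output. It was at 7.35 and 6.38 CPM with vehicle and at 39.4 and 31.0 CPM with dexamethasone. The groups were far apart, with a log2 fold change of 2.36 (SE 0.204, 95% interval 1.82 to 2.90, edgeR adjusted p 0.117, DESeq2 adjusted p 7.19e-15). Leaving out 1 library gave 2.18 to 2.52, with edgeR adjusted p of 0.0170 without vehicle replicate 2 and 0.0280 without dexamethasone replicate 2, and up to 0.0621 otherwise. Usp2 encodes a deubiquitinase that acts on clock proteins. It was at 28.5 and 24.8 CPM with vehicle and at 66.9 and 49.2 CPM with dexamethasone, a log2 fold change of 1.12 (SE 0.206, edgeR adjusted p 0.246, DESeq2 adjusted p 0.00227). Nfil3 encodes a repressor that competes with DBP for D-boxes. It was at 49.6 and 43.6 CPM with vehicle and at 77.9 and 76.6 CPM with dexamethasone, a log2 fold change of 0.73 (SE 0.134, edgeR adjusted p 0.244, DESeq2 adjusted p 0.0301). All 3 genes had both dexamethasone libraries above both vehicle libraries. On the opposite strand Wee1 overlaps 1600010M07Rik and Usp2 overlaps Gm49380 and Gm39325, with the limit given for Nr1d1. Several other further clock genes also overlap another gene. Dbp counts per Nfil3 count were 0.133 and 0.0931 with vehicle and 0.0522 and 0.0327 with dexamethasone, lower in both dexamethasone libraries. Part of that fall is the higher Nfil3 in the denominator, and Dbp alone overlapped between groups.

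The windows of Usp2 and Nfil3 are shown because these genes, like Per1, were higher at an unadjusted p under 0.05, and none was matched for Wee1.
Usp2, chr9:44084670-44084969, plus strand: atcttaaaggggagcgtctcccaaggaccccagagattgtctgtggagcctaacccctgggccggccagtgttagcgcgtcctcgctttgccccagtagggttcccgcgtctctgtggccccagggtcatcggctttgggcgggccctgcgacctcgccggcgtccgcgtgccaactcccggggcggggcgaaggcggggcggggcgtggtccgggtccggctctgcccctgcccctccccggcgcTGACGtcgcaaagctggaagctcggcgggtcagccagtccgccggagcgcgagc
Nfil3, chr13:52980990-52981289, minus strand: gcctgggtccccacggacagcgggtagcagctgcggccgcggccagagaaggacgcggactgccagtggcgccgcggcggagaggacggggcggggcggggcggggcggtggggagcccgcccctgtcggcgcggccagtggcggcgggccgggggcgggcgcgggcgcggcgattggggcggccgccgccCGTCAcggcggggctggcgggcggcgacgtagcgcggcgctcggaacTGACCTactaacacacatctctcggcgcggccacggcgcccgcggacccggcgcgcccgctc
Both held a cAMP response core, at -4 in Usp2 and at -59 in Nfil3, as did both Per1 windows and 20.8% of all windows. The core was also in the windows of Cry1 and Cry2. Among the further clock genes it was in 10 of 26 windows, those of Usp2 and Nfil3 included. It is therefore not particular to the genes that were higher. Nfil3 also held a ROR core at -12. Neither held an E-box, a D-box or the glucocorticoid response element.

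The remaining genes of the wider clock reported here whose groups did not overlap had small or imprecise differences. With dexamethasone higher, they were Nampt, which encodes the enzyme that limits NAD salvage (log2 fold change 0.46, SE 0.187), Bhlhe41, which encodes the E-box repressor DEC2 (0.31, SE 0.130), and the deacetylase gene Sirt1 (0.08, SE 0.126). Hlf, which was not tested, had 2 and 6 counts with vehicle and 5 and 45 with dexamethasone. With dexamethasone lower, they were Timeless (log2 fold change -0.32, SE 0.289) and Arntl2 (-0.27, SE 0.233). The kinase genes Csnk1d, Csnk1e and Gsk3b, whose products phosphorylate PER and other clock proteins, overlapped between groups and had log2 fold changes of -0.05, -0.15 and -0.24. Ciart, a repressor of CLOCK and BMAL1 with 3 E-boxes in its promoter window, was at 3.81 and 1.87 CPM with vehicle and at 7.07 and 3.20 CPM with dexamethasone, and its groups overlapped.

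**Figure D5:**
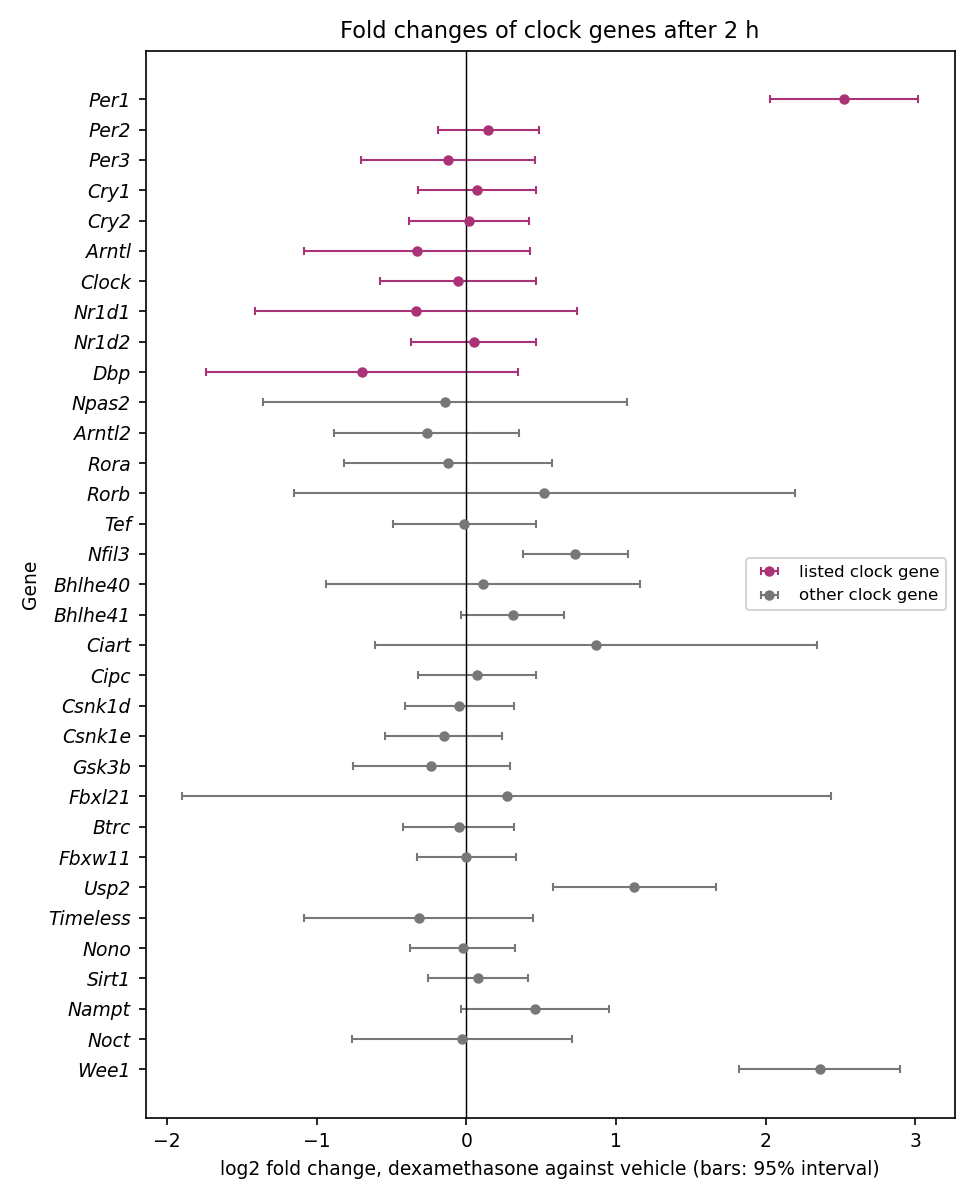
log2 fold change, dexamethasone against vehicle, with its 95% interval, of the 10 clock genes and of 23 tested genes of the wider clock. The intervals of Per1, Wee1, Usp2 and Nfil3 lie above 0, and those of the other genes drawn include 0.

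The genes around Per1 and the genes most like it were then examined. Of the 5 protein-coding genes on each side of Per1 in GENCODE M21 order, 6 had enough reads to test. They were Ctc1, Aurkb, Borcs6, Tmem107 and Vamp2 before it and Aloxe3 after it, with log2 fold changes from -0.38 to 0.25 and a median of 0.14. Ctc1 (19.4 and 19.3 CPM with vehicle, 22.28 and 22.32 with dexamethasone) and Aurkb (0.804 and 0.685 CPM against 0.900 and 0.867) did not overlap between groups, with dexamethasone higher. Vamp2, the nearest of these on one side, was at 11.0 and 17.99 CPM with vehicle and at 14.4 and 19.97 CPM with dexamethasone, so its groups overlapped. The nearest on the other side, Hes7, had at most 3 counts in any library. The 5 tested genes closest to Per1 in profile over the 4 libraries, by Euclidean distance between centred log2 CPM values, were Gas6 (0.222), Syk (0.244), Il6ra (0.255), Col4a1 (0.308) and Ppl (0.345). Their fitted folds were between 4.91 and 6.23, and Ppl rests on 2 and 8 counts in the vehicle libraries. Wee1 came sixteenth by the same measure, at a distance of 0.586, and the nearest of the other 9 members was Per2, at 2.41 and rank 2603 of 13285. A profile over 4 libraries carries little more than the treatment difference and the difference between replicate numbers.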

How the data were processed

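The authors deposited raw read counts per gene for 4 libraries in 1 table. Per the submitters' processing notes, TopHat2 2.0.13, SAMtools 1.1, HTSeq 0.6.1, DESeq2 1.18.1 and the build mm9 were named, without role or order; the annotation and the strand setting are not given in the sources used here. Columns were matched to vehicle and dexamethasone by name. Of 23333 rows, 51 repeated an earlier row and were used once, and no row lacked a gene name. Genes were filtered with filterByExpr (10 counts in enough libraries, 15 in total), leaving 13285 that were scaled by TMM and tested with edgeR 4.0.16 (R 4.3.3) by the quasi-likelihood test, group the only term, with Benjamini-Hochberg adjustment over all genes and a threshold of 0.05. SE and 95% intervals come from that test, and log2 CPM values for profiles carry a prior count of 2. With 2 residual degrees of freedom, totals of 19631435 to 88596296 counts limit the precision of low genes.

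Alternatives were other scalings and filters, DESeq2 1.42.0, limma-voom 3.58.1, the likelihood ratio test of edgeR, a block for replicate number, thinning, repeated rows kept, other thresholds, other gene lengths and leaving out each library. The members and lists were chosen with earlier results of these data known. Genes were named by rule: the 10 members, the 26 further clock genes (some are counted in the list but not reported here), Fkbp5, and the 5 tested genes nearest to Per1 in profile. The neighbours of members and the ratios of counts within a library were added after the data had been seen. The fitting code was run on simulated counts with known changes. Those counts varied less than these libraries and held no replicate difference, so that run checks the code and not these results. Because the counts are per mm9, promoter windows and gene order (GRCm38) were used by gene name only.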

Additional observations from a re-analysis of the deposited data

How the results depend on the processing

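The number of clock members called was 0 with TMM and the quasi-likelihood test. It was 1 (Per1, higher) with no filter beyond 1 count, with DESeq2's Wald test and with edgeR's likelihood ratio test, and 0 to 1 when 1 library was left out. For the 26 further clock genes the count was 0, against 1 with no such filter (Wee1), 3 with DESeq2 and 3 with the likelihood ratio test, and 0 to 1 without a library. For all genes it was 5, against 23 with no filter, 289 with DESeq2, 288 with the likelihood ratio test, 0 with limma-voom (at an unadjusted p under 0.05, 540 were higher and 231 lower), 0 at an adjusted p under 0.01, and 4 to 193 without a library (193 without vehicle replicate 2, 24 without dexamethasone replicate 1, 28 without dexamethasone replicate 2). The cause was not tested. The labels do not say that a replicate number marks a shared culture or day, and 2 pairs cannot settle it; the difference of replicate 1 from replicate 2 correlated between groups at r = 0.734 across 13285 genes, which are not independent. With the replicate block, 1681 genes were called (6.87% of all higher, 5.78% lower). Of the members 4 were, Per1 higher (log2 fold change 2.53, adjusted p 2.19e-05) and Arntl (-0.32, 0.0185), Nr1d1 (-0.34, 0.0279) and Dbp (-0.70, 0.0222) lower, and of the further clock genes 8, among them Wee1, Usp2, Nfil3, Nampt, Bhlhe41 and Ciart higher and Gsk3b lower. That fit leaves a single residual degree of freedom. The common coefficient of variation between libraries fitted by edgeR was 0.0552 with the block and 0.245 without it. Cry1 turned to -0.025 with thinned libraries, and Cry2 to -0.0089 with upper quartile scaling and -0.028 with library size only. Without a library the log2 fold changes ran from -0.32 to 0.10 for Per3, -0.026 to 0.18 for Cry1, -0.12 to 0.18 for Cry2, -0.60 to 0.019 for Arntl, -0.22 to 0.14 for Clock, -0.81 to 0.11 for Nr1d1 and -0.068 to 0.16 for Nr1d2. Over 17 clock genes, 163 of 187 values under the other settings kept direction and side of the threshold, 21 became stronger and 3 reversed. Depth limits Dbp most, at 122 to 234 counts.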

Other observations

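Among the 5 protein-coding neighbours on each side of the other 9 members, 71 genes were tested and 3 of them (4.23%) had at least a 2-fold difference, beside 3.72% of all genes tested. They were picked after their values were seen. Errfi1, which encodes a feedback inhibitor of EGF receptors and lies 5 genes from Per3, was at 16.03 and 12.7 CPM with vehicle and at 267 and 187 CPM with dexamethasone (log2 fold change 3.98, SE 0.262, edgeR adjusted p 0.0989). Chst1, a carbohydrate sulfotransferase gene 2 genes from Cry2, was at 1.23 and 2.08 CPM with vehicle and at 0.500 and 0.578 with dexamethasone (-1.62, SE 0.423, edgeR adjusted p 0.484). Pdgfra, a growth factor receptor gene 5 genes from Clock and one of the fibroblast markers summed above, was at 6.11 and 4.29 CPM with vehicle and at 9.14 and 12.04 with dexamethasone (1.04, SE 0.278, edgeR adjusted p 0.503). Of the other fibroblast markers, Dpt (log2 fold change -1.51, SE 0.592) and Dcn (-0.51, SE 0.242) were lower in both dexamethasone libraries, Col15a1 overlapped between groups and Lum was at 0. In each of the 3 neighbours, which were picked for their large difference, the groups did not overlap. The clock gene near each had a fitted difference of less than 2-fold.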
